A study of Arabidopsis thaliana with 2 samples.

Results

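The growth-regulating factors (GRFs) of Arabidopsis thaliana are a family of 9 transcription factors, GRF1 to GRF9, and GIF2 is one of the coactivators that bind them. These 10 genes were chosen by gene identifier, and 9 of them are among the 6791 genes of the deposited table. GRF9 (AT2G45480) is not in that table, so its level was not analysed here. RNA of plants grown in long days and labelled as flower buds was sequenced from ago1-27, which carries a weak mutant allele of ARGONAUTE1 (AGO1), and from wild type with no other allele or treatment named. Each genotype was described as 3 biological replicates, but the table gives 1 value per genotype, in RPKM (reads scaled to transcript length and to the size of the library). The spread between replicates is therefore unknown, and no difference below carries a test.

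GRFs carry a QLQ domain, through which they bind GIF coactivators, and a WRC domain, through which they bind DNA. GRF and GIF proteins together recruit chromatin remodellers of the SWI/SNF type and keep cells dividing in young leaves and floral organs. The microRNA miR396, loaded into AGO1, pairs with the transcripts of most GRFs inside the stretch that encodes the WRC domain, and so confines their activity to proliferating tissue. GRF5 and GRF6 are known to lack that site, which makes them the contrast within the family.

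The mature 5p strands of miR396a and miR396b and their sites in the GRF transcripts are shown first, because the comparison between members turns on them. Both strands share the seed, bases 2 to 8, given in capitals, and differ at 1 position, base 21. They are read here from the TAIR10.1 genome at the RefSeq annotation of MIR396a on the minus strand (chr2:4142443-4142463) and MIR396b on the plus strand (chr5:13611808-13611828).
miR396a-5p: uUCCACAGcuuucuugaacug
miR396b-5p: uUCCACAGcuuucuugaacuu

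A search of the RefSeq transcripts for complementary windows, with 1 unpaired target base allowed, found the family's site in 7 members. Each is 22 bases long, lies wholly in coding sequence and is scored against whichever of the miR396 strands pairs better. Capitals mark the bases that do not pair with miR396: the second base, and the base looped out between the partners of miRNA bases 7 and 8. GRF3 (chr2:15271745-15271766, minus strand, exon 3 of 4) and GRF4 (chr3:19617293-19617314, minus strand, exon 3 of 4) hold the same letters, as do GRF1 (chr2:9729944-9729965, plus strand, exon 3 of 4) and GRF2 (chr4:17726404-17726425, minus strand, exon 3 of 4). GRF7 (chr5:21795145-21795166, plus strand, exon 2 of 3) and GRF8 (chr4:12538649-12538670, plus strand, exon 5 of 6) form the third pair, and GRF9 (chr2:18746292-18746313, plus strand, exon 2 of 3) differs from all 3 pairs.
GRF3 and GRF4: cCgttcaagaaagcCtgtggaa
GRF1 and GRF2: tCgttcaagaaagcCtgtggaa
GRF7 and GRF8: tCgttcaagaaagcAtgtggaa
GRF9: aCgttcaagaaagcTtgtggaa

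The stretch common to all of them, cgttcaagaaagcNtgtggaa on the sense strand of the messenger RNA, occurred in 7 of 27444 genes with an annotated messenger RNA (0.0255%), and these were the 7 GRFs from which it was derived. GRF6 and GRF5 offered no comparable window. Their best matches are shown for contrast, with mismatched bases again in capitals. The window of GRF6 (chr2:2426674-2426694, plus strand) has 5 mismatches and 1 G:U pair, and 21.3% of genes hold one that pairs as well or better by the same score. The window of GRF5 (chr3:4608501-4608521, plus strand) has 6 mismatches and 1 G:U pair, a score reached by 63.7% of genes. GIF2 reached its best score at a level met by 83.1% of genes.
GRF6, best window: cagAGcCaggaagAtgtAgaa
GRF5, best window: taTCtGaagaaagctAGAgaa

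The values rest on libraries whose sizes can be read from the steps of low RPKM values: 11407616, 12164864 and 12294210 reads for ago1-27, and 10453032, 11196495 and 13887069 reads for wild type. Intervals are exact 95% intervals that cover counting error only, taken at the depth of 1 average library. The table is a selection of genes that differed: a single row (1) has a ratio within 1.5-fold of equality, 69.4% of rows lie above 1 for ago1-27 over wild type, and 30.6% lie below. AGO1, whose transcript the allele leaves in place, was at 175 RPKM in ago1-27 and 53.1 RPKM in wild type. Of 18 flower markers 6 are in the table, 5 higher and 1 lower in ago1-27, with a summed level of 45.7 RPKM in ago1-27 and 25.9 RPKM in wild type. AP2 supplied 23.6 RPKM of that sum in ago1-27 and 7.72 RPKM in wild type, and the lower one, SEP4, was at 6.22 RPKM in ago1-27 and 12.5 RPKM in wild type. Among the others, the sepal and petal identity gene AP1 was at 0.733 RPKM in ago1-27 and 0.0779 RPKM in wild type, and the floral meristem gene LFY at 1.17 RPKM in ago1-27 and 0.151 RPKM in wild type. FUL was at 9.98 RPKM in ago1-27 and 3.22 RPKM in wild type, and SPT at 4.003 RPKM in ago1-27 and 2.24 RPKM in wild type. In wild type, the AP1 value amounts to about 1 read in an average library. The LFY value there equals 2 reads of 1 library. The other 12 flower markers have no row, so their levels are unknown here. Of 7 green leaf markers 4 are in the table, all lower in ago1-27, with sums of 3501 RPKM in ago1-27 and 5619 RPKM in wild type. RCA, the activase of Rubisco, made up most of these, at 3390 RPKM in ago1-27 and 5341 RPKM in wild type. AP1 and LFY are the lowest of the 6 flower markers in the table, so they do not settle the tissue beside such levels of RCA. Whether the samples match the flower bud label was not tested. All 4 seed markers were higher in ago1-27, with sums of 36.6 RPKM in ago1-27 and 2.87 RPKM in wild type, and the 2 of 4 pollen markers in the table summed to 3.83 RPKM in ago1-27 and 1.80 RPKM in wild type. No marker in the table was at 0 in either genotype, but the same holds for every gene in it, so this does not set the markers apart. The part of these differences in the values below was not tested, and in bulk RNA fewer cells of a type and less RNA per cell cannot be told apart.

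All 9 members in the table were higher in ago1-27, beside 69.4% of all rows with a ratio above 1 and 30.6% below it. Their ratios ran from 1.51 for GIF2 to 6.86 for GRF7, with a median of 2.42 beside 1.62 for the whole table. A ratio of at least 2 was met by 7 of the 9, beside 22.6% of all rows. A stricter rule required log2(RPKM + 1) to differ by 1 or more and 1 genotype or both to reach 1 RPKM, a scale that understates the change of low genes. GRF2, GRF3, GRF4 and GRF5 met it, 4 of 9, beside 11.3% of the 6606 rows compared. Of these, GRF2 at 1.002 and GRF4 at 1.007 lay just past the limit, and GRF7 at 0.985 just short of it. Over the whole table this rule gave 748 higher and 694 lower genes as deposited, 219 higher and 1970 lower under median-of-ratios scaling, and 395 higher and 1212 lower under quantile normalization. The median of ratios lowers the log2 of every plain ratio by 0.70, which sets the table's own median to no difference, and lowers the log2(RPKM + 1) differences of low genes by less. Since the table holds almost only genes that differed, its median of 1.62 need not mark equality. By construction, any ratio under 1.62 falls below 1 after the median of ratios. The 8 GRFs stayed above 1 under both rescalings. GIF2, at 1.51 as deposited, thus fell below 1 after the median of ratios, at 0.930.

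**Figure D1:**
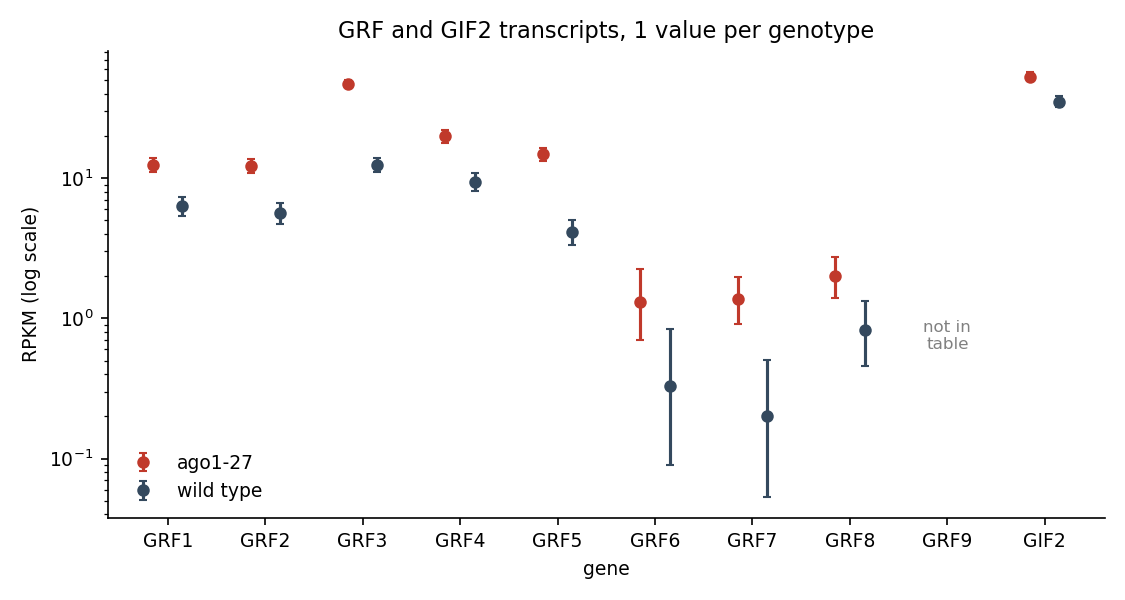
RPKM (log axis) of GRF1 to GRF9 and GIF2, with ago1-27 in red to the left of wild type in dark blue for each gene; points are the 1 deposited value per genotype and bars are exact 95% Poisson intervals at the depth of 1 library. Every pair has the red point above the blue one, GRF6, GRF7 and GRF8 lie below 2 RPKM in both genotypes, and GRF9 has no row.

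Among the members with a site, GRF1, GRF2 and GRF3 act redundantly to enlarge leaves and cotyledons. GRF1 (AT2G22840, chromosome 2, 9728480 to 9731301) was at 12.4 RPKM in ago1-27 and 6.33 RPKM in wild type. GRF2 (AT4G37740, chromosome 4, 17725337 to 17727909) was at 12.2 RPKM in ago1-27 and 5.61 RPKM in wild type. The levels of these genes were close to each other in each genotype, and so were their ratios: 1.96 (95% interval 1.62 to 2.40) for GRF1 and 2.18 (1.78 to 2.68) for GRF2. After the median of ratios these became 1.21 and 1.34.

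GRF3 (AT2G36400, chromosome 2, 15270088 to 15273115) was the most abundant GRF in the table in both genotypes, at 47.2 RPKM in ago1-27 and 12.4 RPKM in wild type. Its ratio of 3.81 (3.33 to 4.35) was higher than that of 93.7% of the table's genes. GRF4 (AT3G52910, chromosome 3, 19615977 to 19618507), which acts with GRF1 to GRF3 in cotyledon and leaf growth, was at 19.9 RPKM in ago1-27 and 9.39 RPKM in wild type. Its ratio was 2.12 (1.77 to 2.55). GRF3 and GRF4 have letter-for-letter the same site, yet their ratios differed by more than counting error, since the intervals do not meet. An antisense RNA gene, AT2G08795, overlaps GRF3 by 227 bases and has no row in the table, and the libraries do not keep strand, so its reads cannot be told apart from those of GRF3.

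GRF7 and GRF8, the third pair of equal sites, were low in both genotypes. GRF7 (AT5G53660, chromosome 5, 21794177 to 21796092), known as a repressor of the osmotic stress factor DREB2A, was at 1.38 RPKM in ago1-27 and 0.201 RPKM in wild type. These values amount to about 28 reads in an average ago1-27 library and 4 reads in an average wild-type one. An antisense RNA gene without a row, AT5G08015, overlaps it by 244 bases. The ratio of 6.86, the largest of the family, therefore has an interval from 2.43 to 27.2, which takes in the ratios of GRF3, GRF5 and GRF6. At the depth of 3 libraries together it runs from 3.82 to 14.1, and the ratios of GRF3 and GRF5 lie just below it. Their own intervals at that depth, 3.53 to 4.12 for GRF3 and 3.18 to 4.14 for GRF5, still meet that of GRF7. GRF8 (AT4G24150, chromosome 4, 12535972 to 12539576) was at 1.9995 RPKM in ago1-27 and 0.826 RPKM in wild type, a ratio of 2.42 (1.31 to 4.79) from about 37 reads in ago1-27 and 15 reads in wild type. Over the 6 members with a site in the table the ratios ran from 1.96 to 6.86, with a median of 2.30.

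GRF5 and GRF6, without the site, had plain ratios above the median of the members with it. As differences in log2(RPKM + 1), GRF5 at 1.64 was above and GRF6 at 0.79 below the median of 0.99 of those members. GRF5 (AT3G13960, chromosome 3, 4608076 to 4610497), which promotes cell proliferation in leaf primordia, was at 14.9 RPKM in ago1-27 and 4.10 RPKM in wild type. Its ratio of 3.62 (2.89 to 4.60) lay beside that of GRF3, and its interval does not meet those of GRF1, GRF2 and GRF4, all of which hold a site. After the median of ratios GRF5 was at 2.23 and GRF3 at 2.35, and after quantile normalization at 2.76 and 3.19.

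GRF6 (AT2G06200, chromosome 2, 2426176 to 2427355) was at 1.31 RPKM in ago1-27 and 0.330 RPKM in wild type. At a transcript length of 872 bases both values equal whole reads of 1 library, to the last deposited digit: 13 reads of the ago1-27 library of 11407616 reads, and 4 reads of the wild-type library of 13887069 reads. The shortest RefSeq transcript of GRF6 has 936 bases, so this length comes from the values and not from the annotation. The ratio of 3.96 thus rests on 1 library per genotype, with an interval from 1.22 to 16.7. Such rows make up 9.63% of the table, and GRF6 is the 1 member among them. Without it, 8 of 8 members were above 1 and 4 of 8 met the stricter rule.

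**Figure D2:**
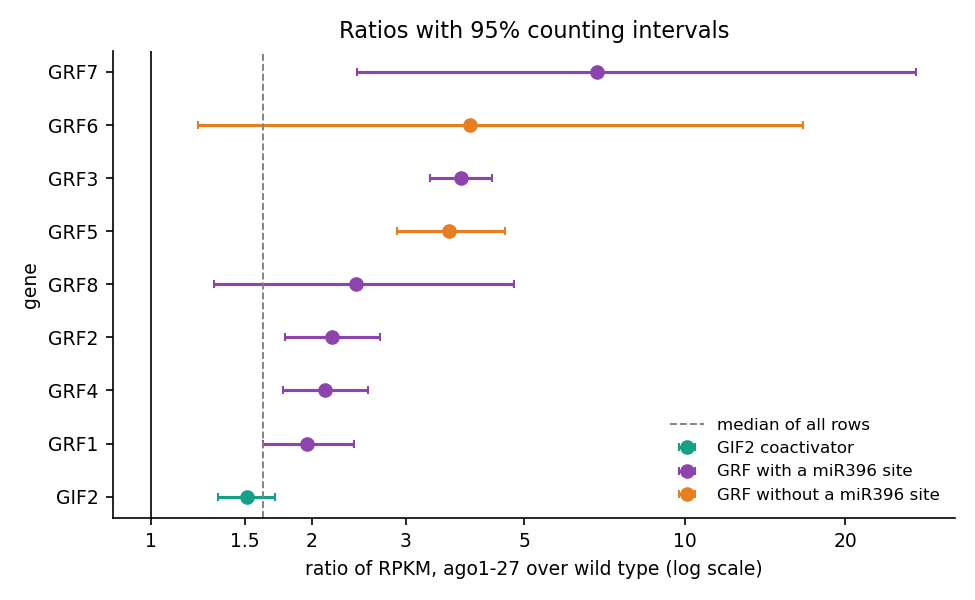
Ratio of RPKM, ago1-27 over wild type (log axis), for the 9 members in the table in order of size, coloured by class; bars are exact 95% counting intervals, the solid line marks 1 and the dashed line the table's median of 1.62. GRF5 and GRF6, in orange, lie among the members with a site, in purple, with GRF3 between them and GRF7 above both. GIF2, in green, is the 1 member below the dashed line.

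GIF2 (AT1G01160, chromosome 1, 72339 to 74096), a coactivator with functions that overlap those of GIF1 and GIF3, had the highest level of the 9 genes and the smallest ratio. It was at 53.0 RPKM in ago1-27 and 35.1 RPKM in wild type, a ratio of 1.51 (1.33 to 1.71), higher than that of 32.1% of the table's genes. The lowest ratio above 1 in the table is 1.5001, so GIF2 stands at the edge of what the table holds. On the opposite strand AT1G01170 overlaps GIF2 by 166 bases, and it was at 108 RPKM in ago1-27 and 70.2 RPKM in wild type, a ratio of 1.54. An antisense RNA gene with no row, AT1G04007, overlaps GIF2 by 463 bases. Without strand, reads in these stretches cannot be assigned to a single gene.

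The order of levels, which RPKM allows because it is scaled to length, was similar in both genotypes but for GRF5, and for GRF6 and GRF7, which changed places. In ago1-27 it ran GIF2, GRF3, GRF4, GRF5, GRF1, GRF2, GRF8, GRF7 and GRF6. In wild type it ran GIF2, GRF3, GRF4, GRF1, GRF2, GRF5, GRF8, GRF6 and GRF7. In ago1-27 the intervals of GIF2 and GRF3 met, at 49.0 to 57.2 and 44.4 to 50.1 RPKM, whereas in wild type those of the same genes were apart, at 31.9 to 38.6 and 10.99 to 13.9 RPKM. Neighbours whose intervals also met were GRF5 and GRF1, GRF1 and GRF2, GRF8 and GRF7, and GRF7 and GRF6 in ago1-27, and GRF1 and GRF2, GRF2 and GRF5, GRF8 and GRF6, and GRF6 and GRF7 in wild type.

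The 8 GRFs in the table summed to 111 RPKM in ago1-27 and 39.2 RPKM in wild type, a ratio of 2.84. GRF3 made up 42.4% of that sum in ago1-27 and 31.6% in wild type. GRF5 and GRF6 together made up 14.5% in ago1-27 and 11.3% in wild type. Without GRF3, the other 7 summed to 64.1 RPKM in ago1-27 and 26.8 RPKM in wild type, a ratio of 2.39. GRF9 is outside these sums.

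**Figure D3:**
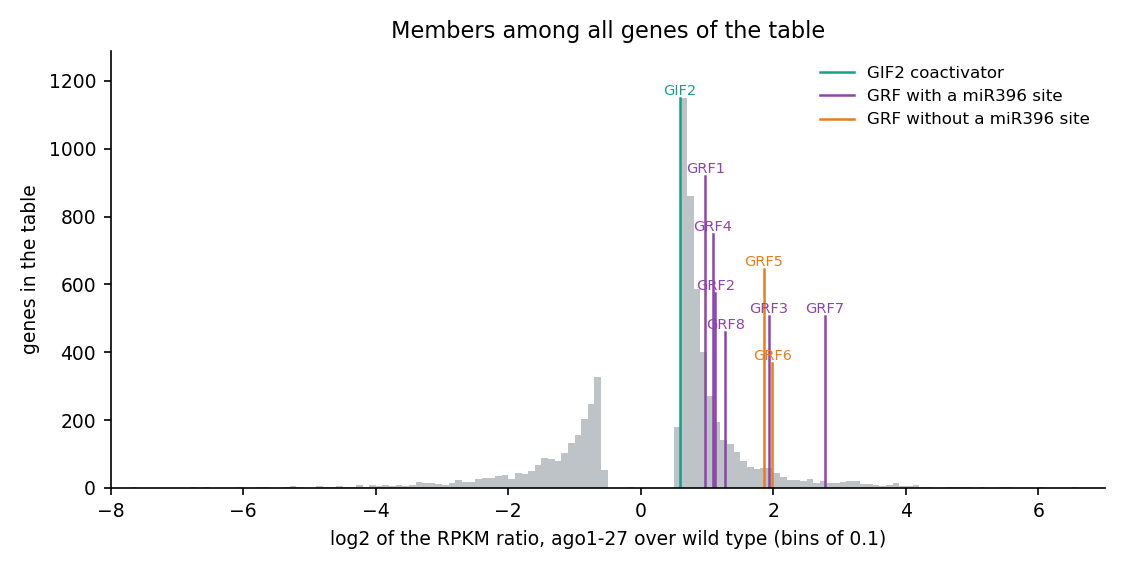
Number of genes in the table (vertical axis) by log2 of the RPKM ratio, ago1-27 over wild type, in bins of 0.1; vertical lines mark the 9 members, with heights chosen only to keep the names apart. The empty stretch around 0 is the range that the table leaves out, GIF2 stands at its right edge, and GRF3, GRF5, GRF6 and GRF7 stand in the right tail.

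Genes that make, carry or share miR396 were next. Of 9 listed, 4 are in the table, all higher in ago1-27, beside 69.4% of all rows. AGO1 alone met the stricter rule, which 11.3% of rows passed upwards, at a ratio of 3.29 (3.13 to 3.45). The precursor genes MIR396a and MIR396b have no row. BHLH74 (AT1G10120, chromosome 1, 3304039 to 3306956), a helix-loop-helix factor and a miR396 target outside the GRF family, was at 30.4 RPKM in ago1-27 and 17.2 RPKM in wild type, a ratio of 1.77 (1.54 to 2.04). Its best window, on the minus strand across the junction of exons 2 and 3 between positions 3305399 and 3305519, has 2 mismatches and 3 G:U pairs but no looped-out base, and is given here to set beside the GRF sites.
BHLH74, best window: tggAAcaagaaagctgtggag
DCL1, the enzyme that cuts miRNA precursors, was at 12.7 RPKM in ago1-27 and 8.34 RPKM in wild type. Its partner HYL1 was at 6.23 RPKM in ago1-27 and 4.14 RPKM in wild type, values that match whole reads of a single library (1) in each genotype. Both had ratios near the lower edge of the table, 1.52 and 1.51. Both fell below 1 after the median of ratios by construction, as any ratio under 1.62 does, whereas AGO1 and BHLH74 stayed above.

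Of 10 GIF coactivators and SWI/SNF partners 3 are in the table: GIF1, ARP4 and GIF2, which is already counted among the members. All were higher in ago1-27, beside 69.4% of all rows. None was past the stricter rule, which 11.3% of rows passed upwards. GIF1, also called ANGUSTIFOLIA3 and the best studied of the coactivators, was at 12.6 RPKM in ago1-27 and 6.76 RPKM in wild type, a ratio of 1.86 (1.48 to 2.36). ARP4, an actin-related protein of chromatin remodelling complexes, was at 30.1 RPKM in ago1-27 and 17.8 RPKM in wild type. GIF3 and the ATPases BRM and SYD have no row. GIF1 and ARP4 stayed above 1 after both rescalings, at 1.15 and 1.04 after the median of ratios, while GIF2 did not.

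Of 8 CIN-type TCP factors, some of which raise miR396 and all of which restrain leaf growth, TCP3 is the 1 in the table. It was at 110 RPKM in ago1-27 and 68.9 RPKM in wild type, a ratio of 1.60 (1.48 to 1.74) that became 0.986 after the median of ratios. TCP4, the member best known for activating miR396, has no row.

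Of 8 genes reported as targets of GRFs or GIF1, 2 are in the table and lie on opposite sides of 1. DREB2A (AT5G05410, chromosome 5, 1602205 to 1604112), which GRF7 represses, was at 1.98 RPKM in ago1-27 and 10.4 RPKM in wild type, 5.27-fold lower in ago1-27 (3.64 to 8.04) and past the stricter rule, which 10.5% of rows passed downwards. COL5, a zinc finger protein of the CONSTANS-like family, was at 9.57 RPKM in ago1-27 and 6.13 RPKM in wild type. Its ratio of 1.56, under the table's median of 1.62, fell below 1 after the median of ratios by construction. The KNOX genes KNAT1, KNAT2, STM and KNAT6 have no row.

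Of 14 other regulators of leaf and organ growth 7 are in the table, 5 higher and 2 lower in ago1-27. The 2 lower ones met the stricter rule, which 10.5% of rows passed downwards. ARGOS, an auxin-induced gene of organ size, was at 0.679 RPKM in ago1-27 and 3.07 RPKM in wild type, 4.52-fold lower (2.01 to 11.02). Its relative ARL, which answers to brassinosteroids, was at 4.87 RPKM in ago1-27 and 17.5 RPKM in wild type, 3.59-fold lower (2.76 to 4.69). The higher ones were the 3 D3-type cyclins, the cytochrome P450 KLU and PPD2, a factor that restrains division in leaves. CYCD3;3 was at 8.74 RPKM in ago1-27 and 4.09 RPKM in wild type, a ratio of 2.14. CYCD3;2 was at 52.4 RPKM in ago1-27 and 28.6 RPKM in wild type, a ratio of 1.83, and CYCD3;1 at 31.1 RPKM in ago1-27 and 17.8 RPKM in wild type, a ratio of 1.75. These genes code for regulators of cell division. KLU had a ratio of 2.11 and PPD2 of 1.71, and none of the 5 fell below 1 under either rescaling. Over these lists, apart from the members, 13 of 16 genes in the table were higher in ago1-27, which is to be read beside 69.4% of all rows, as is the same count of 13 under quantile normalization, where 69.4% of rows again lie above 1. Under the median of ratios 9 of 16 were above 1, beside 50.0% of all rows.

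**Figure D4:**
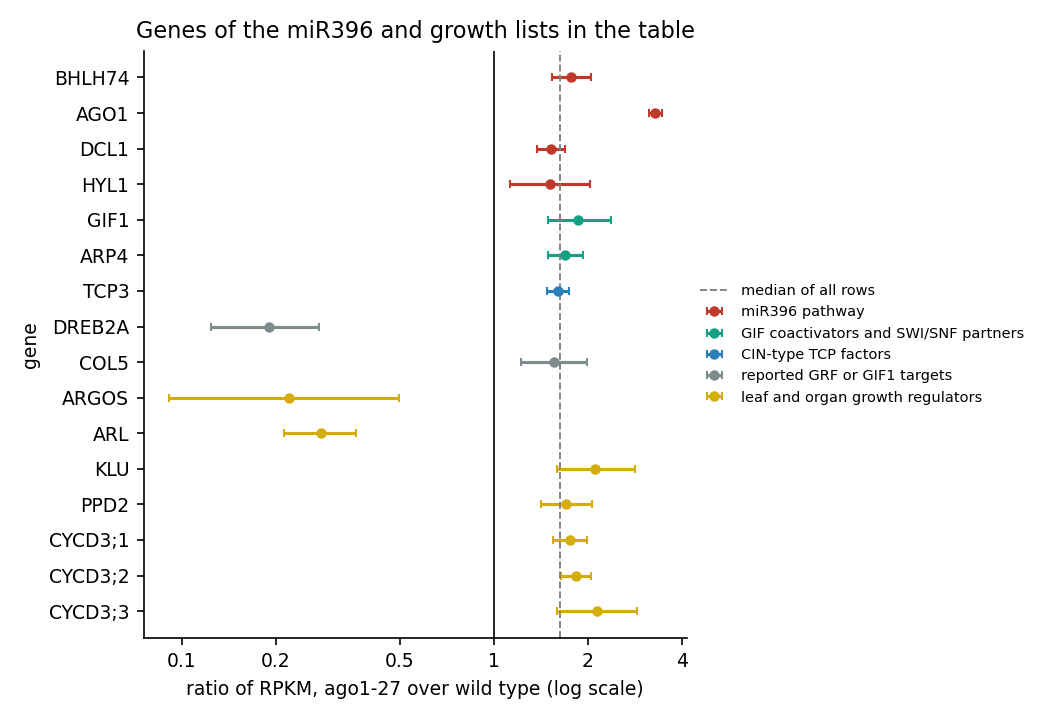
Ratio of RPKM, ago1-27 over wild type (log axis), for the 16 genes of the miR396 and growth lists in the table, coloured by list; bars are exact 95% counting intervals, the solid line marks 1 and the dashed line the table's median of 1.62. DREB2A, ARGOS and ARL lie left of 1, AGO1 lies farthest right, and most others gather around the dashed line.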

How the data were processed

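RNA-seq of 2 samples, ago1-27 and wild type, was analysed. Per the labels' protocols, TruSeq libraries without strand were read as 50-nt single ends. The submitters' processing notes name TopHat2 2.0.11 and TAIR10. Not given in the sources used here are how reads were counted, how multiply mapped reads were treated, how replicates were combined and how rows were selected. The table deposited by the authors holds RPKM and a ratio, ago1-27 over wild type, per the file headers. Dividing one RPKM column by the other gave the deposited ratio within a relative error of 4.17e-08.

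With 1 value per genotype no test was run. Reads behind a value were estimated from RPKM, the shortest RefSeq transcript and the mean of the library totals, 11955563 reads for ago1-27 and 11845532 for wild type, and exact (Clopper-Pearson for ratios, Poisson for levels) intervals at 95% were taken. They cover counting error only and leave out variation between plants. Totals were searched between 8000000 and 20000000, and lengths of 150 to 6000 bases for rows of 1 library. The steps were tested on simulated data. Site scores gave 1 per mismatch, 0.5 per G:U pair and 1 for a looped-out base, over both miR396 strands and 27444 genes of TAIR10.1. Coordinates are those of TAIR10.1.

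The members and lists were chosen with earlier results of these data known. All members, AGO1 and the listed growth genes in the table were named by rule, and AT2G08795, AT5G08015, AT1G01170, AT1G04007, the single markers and the genes in the closing part were added afterwards. The alternatives were a pseudocount of 0.5 or 0.1 in place of 1, no filter, RPKM of at least 5, median of ratios, quantile normalization and the depth of 3 libraries. Tools were scipy 1.17.1, pandas 2.3.3, numpy 2.4.6 and matplotlib 3.10.9 in Python 3.11.15.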

Additional observations from a re-analysis of the deposited data

How the results depend on the processing

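All 9 members stayed above 1 with each pseudocount and without a filter, which holds by construction, since neither can reverse a ratio. After quantile normalization all 9 were again above 1. After the median of ratios 8 of 9 were, and the log2 ratio of GIF2 turned to -0.10. That turn holds by construction, since the ratio of GIF2, 1.51, lies below the table's median of 1.62. At a minimum of 5 RPKM, 6 members remain by construction, all above 1. The members past the stricter rule, 4, became 6 with a pseudocount of 0.5 and 7 with 0.1. They became 7 also with none, a setting chosen after the data were seen, and 2 after either rescaling. The share of all rows past that rule upwards moved too, from 11.3% as deposited. It was 16.0% with a pseudocount of 0.5, 20.4% with 0.1 and 21.6% with none. Under quantile scaling it was 6.0%, and under the median of ratios 3.34%. For the members, a median log2 ratio of 0.99 became 1.18 and 1.28 with a pseudocount of 0.1 and none, 0.38 under the median of ratios and 0.665 under quantile normalization. For the members with a site, 0.99 became 0.37 and 0.685 after the same rescalings. By construction, a smaller pseudocount favours low genes. Both rescalings lowered the ratios of all 9 members. Rows past the stricter rule upwards went from 748 to 219 under the median of ratios and 395 under quantile normalization. Those past it downwards rose from 694 to 1970 and 1212 under the same rescalings, so lower genes moved further from equality. Leaving out GRF6, also chosen after the data were seen, moved no count past 1.5-fold. At the depth of 3 libraries together the interval of GRF7 was 3.82 to 14.1 and that of GRF8 1.70 to 3.48. No paired analysis was possible because the table holds 1 value per genotype, so no replicate could be left out either. Depth limits GRF6, GRF7 and GRF8 most.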

Other observations

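Pairing with miR396 as good as that of the weakest GRF site by the same score was found in 16 genes, 9 of them outside the family. Of these 9, 3 are in the table and were higher in ago1-27, beside 69.4% of all rows, and none met the stricter rule. RD21B, a papain-like cysteine protease, was at 46.2 RPKM in ago1-27 and 28.2 RPKM in wild type, a ratio of 1.64. AT3G19400 was at 10.2 RPKM in ago1-27 and 6.11 RPKM in wild type, a ratio of 1.66. AT4G33620 was at 6.33 RPKM in ago1-27 and 3.54 RPKM in wild type, a ratio of 1.79. At the next score limit, 3, there were 37 genes outside the family, of which 16 are in the table. Of these 16, 13 were higher and 3 lower in ago1-27, beside 69.4% and 30.6% of all rows. The stricter rule was met by 2 of the higher and 1 of the lower ones, beside 11.3% of rows upwards and 10.5% downwards. AUR3, which overlaps GRF9 by 126 bases on the opposite strand, was at 4.81 RPKM in ago1-27 and 2.43 RPKM in wild type, a ratio of 1.98, while GRF9 itself has no row.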
